A study of Mus musculus with 8 samples.

Results

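The wildtype round spermatid profile comprised the 4 wildtype arrays among the 8 arrays of the series, chosen by their sample labels alone. Round spermatids, the haploid germ cells formed by meiosis, were separated from testes by centrifugal elutriation, and their total RNA was hybridised to Illumina mouse bead arrays. By their sample labels, the mice were males aged 8 weeks that carried no transgene, and the strain is not named there. The deposited tables conflict over this genotype for wildtype 3 and 4, as set out below. The other 4 arrays, from mice with shSLX or shSLY knockdown constructs, were not used. Whether each sample came from its own animal is not stated, so every p-value rests on the scatter of 4 arrays, which may be partly technical.

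A round spermatid prepares to become a sperm. It builds the acrosome, a secretory vesicle over the nucleus that later opens at the egg, and a tail with its own filaments and energy supply. It also makes transition proteins and protamines, the small basic proteins that replace histones and pack the sperm genome. Transcription stops when the nucleus condenses, so many messages are made early, stored and translated later. CREM, a factor related to the cyclic AMP responsive factor CREB, activates many of these genes. Many general enzymes are replaced or joined in these cells by relatives whose genes are used mainly in the testis.

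Each array measured 45281 probes, of which 34885 carried 1 gene symbol. These named 19057 genes, and each gene is represented by its brightest probe unless stated otherwise. Values are log2 of the deposited series matrix intensity, given as mean ± SD over 4 arrays. A probe was called above background where its log2 signal reached 6.52, the lowest signal at which the deposited detection p was under 0.01 on both wildtype 1 and wildtype 2. Every array of the series matrix ran between the same lowest and highest signal (46.4 and 42689), so ranks carry what separates the arrays. The rank is that of a probe's signal, which also depends on how well the probe binds, and is not a count of RNA molecules. The 2 deposited tables agreed fully on the identity of wildtype 1 and 2 (Spearman correlation 1 over all probes). The series matrix values of wildtype 3 and 4 matched no column of the other table, with best correlations of 0.909 and 0.915. That table's own columns for wildtype 3 and 4 instead agreed fully (correlation 1) with the series matrix arrays shSLY 1 and 2, and its shSLY columns agreed fully with the series matrix arrays shSLX 1 and 2. The sources do not settle which table is named correctly, so the arrays called wildtype 3 and 4 here may not be wildtype. Main counts are therefore also given for wildtype 1 and 2 alone. Pearson correlation of log2 signal over all probes was 0.997 between wildtype 1 and 2, 0.996 between wildtype 3 and 4, and 0.991 to 0.992 across those pairs. By rank the second pair did not stand out: Spearman correlation was 0.944 between wildtype 1 and 2, 0.899 between wildtype 3 and 4, and 0.905 to 0.915 across. The array labels place wildtype 3 and 4 on 1 slide and the others on a slide each.

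The label was first checked with its markers. Prm1, which encodes protamine 1, gave log2 signals of 15.00, 15.38, 15.17 and 15.08 on wildtype 1 to 4, and its rank among all probes was never below 9. Acrv1, an acrosomal matrix protein, gave 13.88, 13.72, 13.65 and 13.91. Tnp1, transition protein 1, gave 13.76 and 13.74 on wildtype 1 and 2 and 14.27 and 14.24 on wildtype 3 and 4. All 3 markers lay far above the limit on every array. By limma's one-sided test against the limit, the adjusted p was 5.4e-12 for Prm1, 5.4e-12 for Acrv1 and 8.5e-11 for Tnp1. The same test called 13199 of 45281 probes above background, which is 29.1% of them, and 28930 (63.9%) were below the limit on all 4 arrays. By the limit alone, without the test, 13337 probes (29.5%) reached it on all 4 arrays. Without wildtype 3 and 4, 14187 probes reached the limit on both remaining arrays and 30029 were below it on both. Prm2 is not analysed here.

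Lactate dehydrogenase C, the testis form of the enzyme that interconverts pyruvate and lactate, had the brightest named probe. Ldhc gave the highest log2 signal on 3 arrays (15.38 on each of wildtype 1, 3 and 4) and 15.08 on wildtype 2, and its rank ran from 1 to 8. The next genes were Ubb-ps (15.17 ± 0.12), a polyubiquitin pseudogene whose probe may also bind the near-identical parent gene, and Fabp9 (15.16 ± 0.01), a fatty acid binding protein of the testis. Prm1 (15.16 ± 0.16) followed, then Mt1 (15.02 ± 0.21), a metal-binding metallothionein. The order of Ubb-ps, Fabp9 and Prm1 is not separable, because their means lie within 1 SD of each other.

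**Figure D1:**
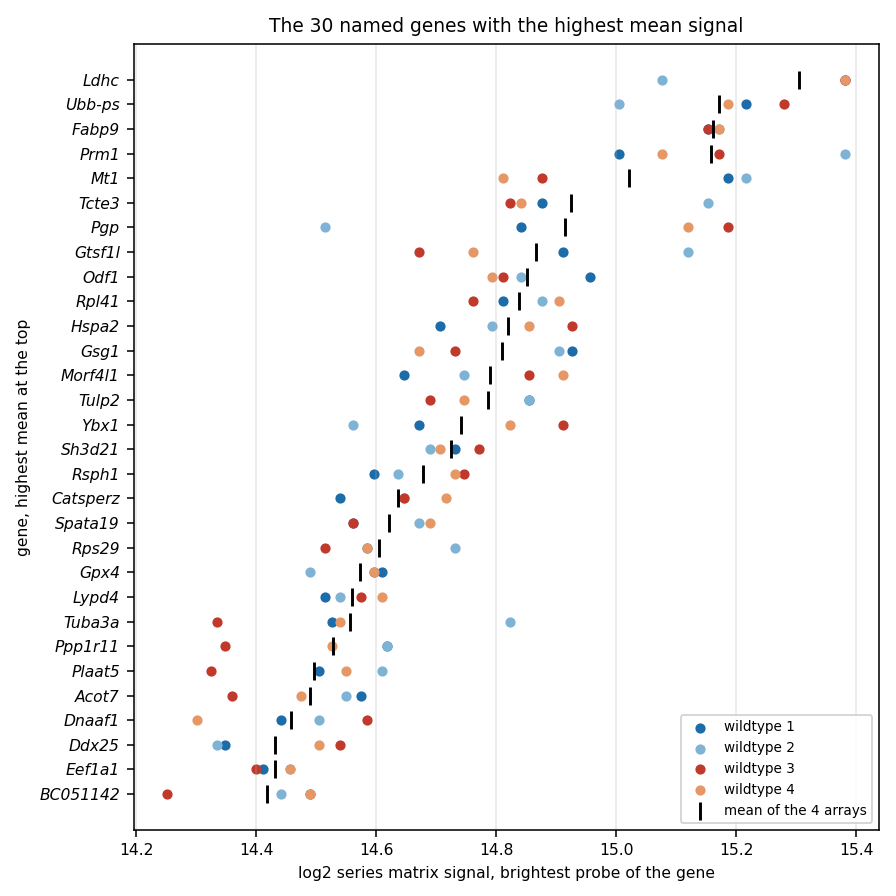
Log2 series matrix signal (horizontal axis) of the 30 named genes with the highest mean, 1 row per gene; coloured points are the 4 wildtype arrays and black bars their mean. The means ran from 15.31 (Ldhc) to 14.42 (BC051142), and neighbouring genes overlapped from array to array.

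The 30 named genes with the highest means spanned less than 1 log2 unit (15.31 to 14.42). They held genes of the sperm tail: Tcte3 (14.92 ± 0.15), a dynein light chain, Odf1 (14.85 ± 0.07) of the outer dense fibres, Rsph1 (14.68 ± 0.07) of the axonemal radial spokes, Catsperz (14.64 ± 0.07) of the sperm calcium channel and Dnaaf1 (14.46 ± 0.12), a dynein assembly factor. Hspa2 (14.82 ± 0.09), the testis-enriched 70 kDa heat shock protein, stood in the same range. So did Gsg1 (14.81 ± 0.13), a germ cell gene, Tulp2 (14.79 ± 0.08), Spata19 (14.62 ± 0.07), a sperm mitochondrial protein, and Gpx4 (14.57 ± 0.06), a selenium peroxidase that becomes a structural part of the sperm midpiece. Translation genes were among them too. Rpl41 (14.84 ± 0.06) and Rps29 (14.60 ± 0.09) encode ribosomal proteins, Eef1a1 (14.43 ± 0.03) an elongation factor, and Ybx1 (14.74 ± 0.16) and Ddx25 (14.43 ± 0.11) proteins that bind or unwind messenger RNA, the last needed for spermatid development. Tuba3a (14.56 ± 0.20) encodes an alpha-tubulin of the testis, and a near-identical relative can bind its probe.

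The choice of probe mattered at the top. With the mean over all probes of a gene, 15 of the 30 and 65 of the 100 leading genes remained. With wildtype 1 and 2 alone, 28 of 30 and 92 of 100 remained. Of the 100 brightest probes, 26 carried no gene symbol, and 77 were in the top 100 on all 4 arrays. The 100 brightest probes held 12.4% and the 1000 brightest 48.9% of an array's summed signal, from which background was not subtracted.

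Promoters of these genes are shown because CREM binds the cyclic AMP response element (CRE), and its letters can be looked for directly. Each line gives the 120 bases before an annotated start site, 5′ to 3′ on the gene's strand, from RefSeq on GRCm38.p6. Capitals mark a match on either strand to TGANGTCA, the element with 1 free base, or in Ldhc to the half-site TGACG. Tnp1, Prm1 and Ldhc encode products described above, and Tnp1 ranked 65 among named genes by mean signal. Gsg1 and Ppp1r11 (a protein phosphatase 1 inhibitor, 14.53 ± 0.13) are members of the top 30 with a match.
Prm1: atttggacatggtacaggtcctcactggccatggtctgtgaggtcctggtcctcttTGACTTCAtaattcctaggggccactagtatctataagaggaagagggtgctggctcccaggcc
Tnp1: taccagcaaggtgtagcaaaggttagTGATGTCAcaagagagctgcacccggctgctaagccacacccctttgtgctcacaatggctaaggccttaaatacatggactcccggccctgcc
Gsg1: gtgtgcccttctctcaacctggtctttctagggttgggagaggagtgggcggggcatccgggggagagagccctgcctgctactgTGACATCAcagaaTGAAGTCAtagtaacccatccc
Ppp1r11: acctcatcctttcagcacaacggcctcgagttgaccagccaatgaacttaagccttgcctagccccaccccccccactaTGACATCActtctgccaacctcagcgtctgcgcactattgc
Ldhc: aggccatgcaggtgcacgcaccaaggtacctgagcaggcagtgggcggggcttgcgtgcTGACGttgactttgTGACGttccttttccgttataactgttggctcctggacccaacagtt

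These windows lie at chr16:10796824-10796943 for Prm1, chr1:73015900-73016019 for Tnp1, chr6:135254337-135254456 for the first of 2 start sites of Gsg1 and chr17:36951793-36951912 for Ppp1r11, all on the minus strand. The Ldhc window, for the first of 2 start sites, lies at chr7:46861143-46861262 on the plus strand. The match began 64 bases before the start in Prm1, 94 in Tnp1 and 41 in Ppp1r11. Gsg1 held matches that began 35 and 22 bases before the start, and Ldhc held half-sites that began 61 and 47 bases before it. The windows of the second start sites of Ldhc and Gsg1, and that of Hspa2, held no match and are not shown. No match in a window says only that these letters are not in it.

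Over the 250 bases before the start, TGANGTCA was found in 83 of 398 genes of the top 500 with a promoter (20.9%). It was found in 6.39% of the genes not above background on any array and in 7.86% of 15237 named genes. Among the top 30 genes with a promoter it was in 4 of 23 (Gsg1, Lypd4, Ppp1r11 and Prm1). The full element TGACGTCA, which is one form of that pattern, was in 4.27% of the top 500, 1.45% of the genes not above background and 2.33% of the named genes. The half-site TGACG, which the full element contains, was in 28.4%, 18.3% and 24.1% of the same sets. TATAAA, the core of the TATA box, was in 10.1% of the top 500, 17.4% of the genes not above background and 12.8% of the named genes. Both strands were searched, the pattern with 1 free base was chosen with its matches in view, and these shares carry no test. A match is a run of letters and not a site of binding.

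Of the 19057 named genes, 7811 were above background on all 4 arrays (41.0%), and 9761 had no probe above it on any array (51.2%). With wildtype 1 and 2 alone, 8282 genes were above background on both (43.5%) and 10247 on neither. The gene lists below are read against these shares. Of the 51 lists, 33 had a lower share above background than all named genes, and 31 with wildtype 1 and 2 alone. The median SD over the 4 arrays was 0.13 log2 units among the 7811 genes.

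**Figure D2:**
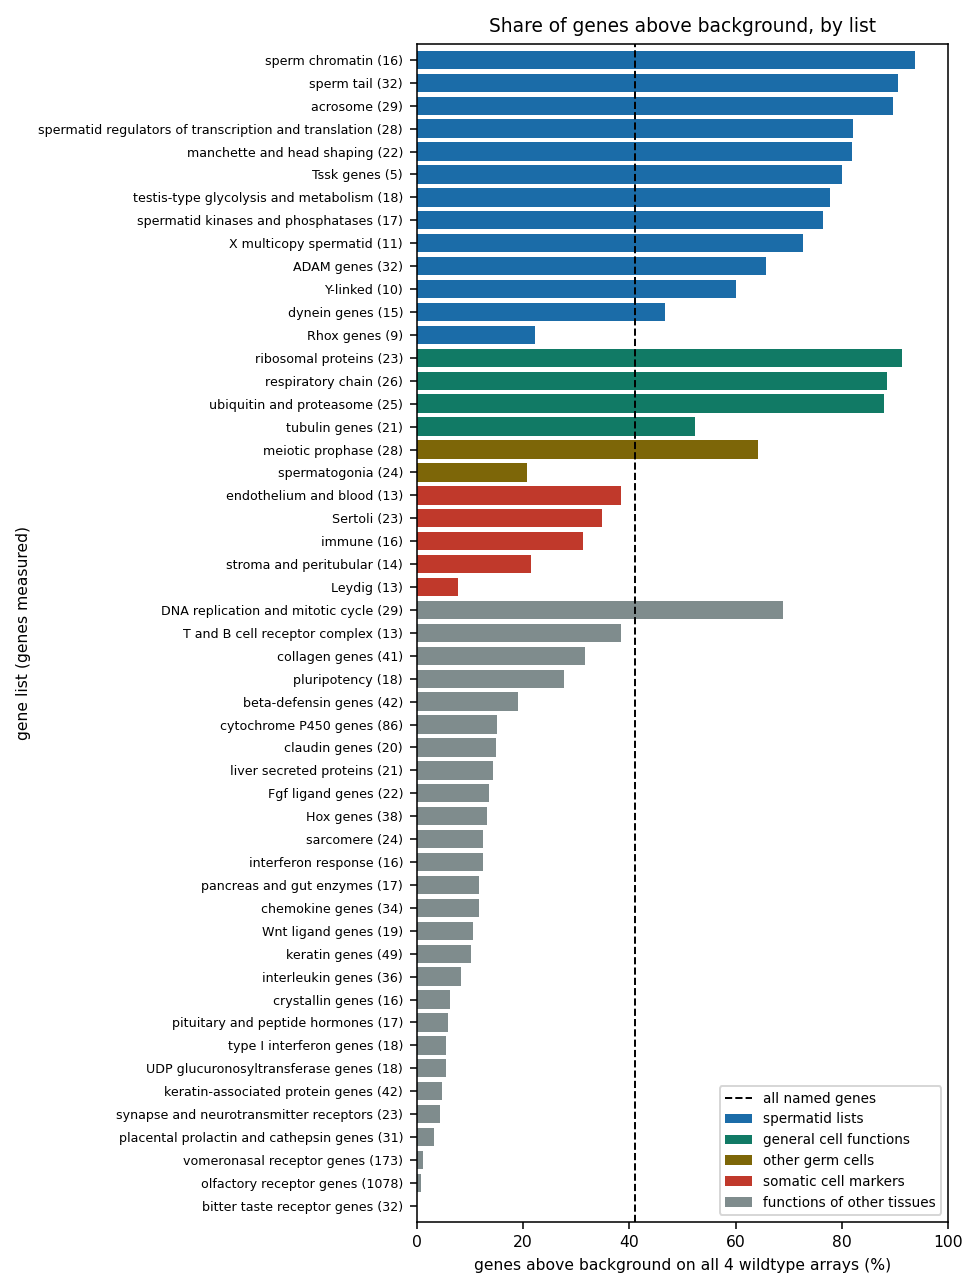
Share of measured genes above background on all 4 wildtype arrays (bars, horizontal axis, %) for 51 gene lists, with the number of genes measured in brackets; colours mark the kind of list and the dashed line the 41.0% of all named genes. Of 13 spermatid lists, 12 lay above the line. Of 27 lists labelled as functions of other tissues, which include cell division and pluripotency, 26 lay below it. The lists were written with earlier results of these data known, so these counts are not a test.

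Genes listed for sperm chromatin were above background in 15 of 16 cases, with a list median of 11.56 against 6.37 over all named genes. The count and median include Papolb, a poly(A) polymerase, which was above background on all 4 arrays. Below Prm1 and Tnp1 stood H2bl1 (13.41 ± 0.15), a testis histone H2B variant, H1f7 (11.88 ± 0.20), the spermatid linker histone, Brdt (12.30 ± 0.35), a bromodomain protein that binds acetylated histones, and Prm3 (11.48 ± 0.15). Tnp2, transition protein 2, gave 10.64 ± 0.17. H1f6, the linker histone of spermatocytes, reached the limit on 2 of 4 arrays (6.58 ± 0.16) and was the member that did not pass, although it did with wildtype 1 and 2 alone.

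Of the acrosome genes, 26 of 29 were above background, with a median of 12.24. Actl7a (13.94 ± 0.12), an actin-related protein of the sperm head, Spink2 (13.87 ± 0.10), an inhibitor of acrosomal protease, and Acrbp (13.63 ± 0.17), which binds proacrosin, stood beside Acrv1. Acr, the protease acrosin itself, gave 12.24 ± 0.06, and Izumo1, the sperm protein that binds the egg, 11.88 ± 0.20. Gopc, a Golgi protein needed for acrosome formation, was not above background on any array (6.06 ± 0.16). Of the testis ADAM proteins, membrane proteins of sperm surface processing, Adam32 (13.99 ± 0.11), Adam3 (13.72 ± 0.13) and Adam5 (12.97 ± 0.13) led. The 1 probe chosen for Adam2, a fertilin subunit, was not above background (5.99 ± 0.07).

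Sperm tail genes were above background in 29 of 32 cases, with a median of 12.39. Beside those named above, Odf2 (14.04 ± 0.11) and Odf4 (13.96 ± 0.09) belong to the outer dense fibres, and Akap3 (12.95 ± 0.18) and Akap4 (12.82 ± 0.15) to the fibrous sheath. The 4 Catsper subunits in the list ran from 11.32 ± 0.08 (Catsper1) to 13.59 ± 0.24 (Catsper2). Not above background were Dnah1 (6.45 ± 0.02), an inner-arm dynein heavy chain, Ropn1l (6.11 ± 0.07) and Spag17 (5.99 ± 0.06), of the central pair. A separate list of dynein genes passed in only 7 of 15 cases (46.7%), near the 41.0% of all named genes, with a median of 6.55. For head shaping and the manchette, a skirt of microtubules around the spermatid nucleus, 18 of 22 genes passed, led by Spag4 (13.98 ± 0.33) and Spata6 (13.71 ± 0.04).

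Regulators of transcription and translation known from spermatids passed in 23 of 28 cases. Beside Ybx1 and Ddx25, the brightest were Ybx2 (14.11 ± 0.15), a germ cell Y-box protein that binds messenger RNA, and Pabpc2 (13.90 ± 0.18), a poly(A)-binding protein. Other RNA-binding members were much lower, such as Paip2 (7.37 ± 0.11) and Elavl1 (7.21 ± 0.11), and Cnbp (6.06 ± 0.07) and Msi1 (6.02 ± 0.05) were not above background on any array. Among transcription factors, Rfx2 gave 13.34 ± 0.06, and Fhl5, a partner of CREM, 13.33 ± 0.07. Piwil1, a PIWI protein that binds piRNAs, gave 10.97 ± 0.26. Mael (5.99 ± 0.16) and Tbpl1 (5.95 ± 0.13), a relative of the TATA-binding protein needed in spermatids, were not above background.

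General machinery was also broadly present. Ribosomal protein genes passed in 21 of 23 cases, respiratory chain genes in 23 of 26, and ubiquitin and proteasome genes in 22 of 25. Cox8c (14.40 ± 0.05), a testis subunit of cytochrome c oxidase, had the brightest respiratory probe. Usp2 (13.47 ± 0.09), a deubiquitinase, Psme4 (13.17 ± 0.15), the proteasome activator of spermatids, and Klhl10 (12.12 ± 0.18), a testis adaptor of cullin 3, were among the bright ubiquitin genes. Rps20 (5.78 ± 0.08), Rpl6 (5.95 ± 0.14), Ndufs1 (5.97 ± 0.06) and Sdha (5.96 ± 0.04), which cells need generally, were listed near the floor of the arrays, so a signal below the limit does not by itself show that a gene is unused.

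Genes whose several probes disagree may bear on isoform use. Of 9172 genes with more than 1 probe, 2849 (31.1%) had at least 1 probe above background on all 4 arrays and at least 1 below it on all 4. With wildtype 1 and 2 alone the count was 3192. The 9172 include 3710 genes with no probe above background, which could not be split. Among the 4581 genes whose brightest probe was above background, 62.2% were split. A split was therefore common in detected genes and does not by itself mark a gene out for isoform use. Among all 2-probe genes, the split share was 32.1% where the probes were annotated to different transcript accessions (360 of 1120). It was 18.3% where both carried the same one (719 of 3924). The part of probe binding in these shares was not tested.

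**Figure D3:**
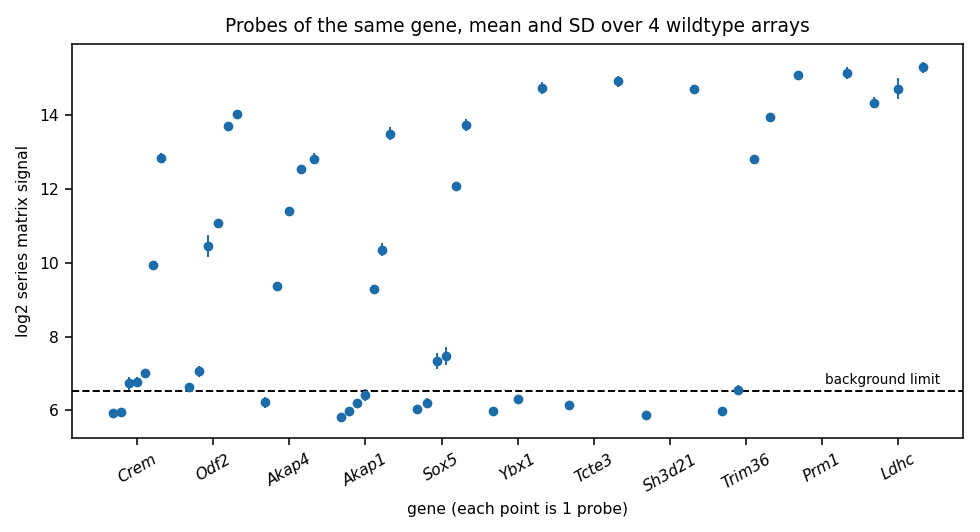
Log2 series matrix signal (vertical axis) of every probe of 11 genes, as mean and SD over 4 wildtype arrays; the dashed line is the background limit of 6.52. Crem, Akap4, Akap1 and Sox5 had probes on both sides of the limit, while both Prm1 probes and all 3 Ldhc probes lay above 14.

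Crem is known to switch, in male germ cells, to transcripts that encode activators, and it had 7 probes. The brightest, annotated to one accession, gave 12.89, 13.02, 12.71 and 12.77 on wildtype 1 to 4. The 6 others, annotated to a second accession, averaged from 9.94 ± 0.11 down to 5.93 ± 0.04, and 2 of them were below the limit on every array. The SD of each probe was at most 0.18, far less than the differences between probes. The exons these probes cover were not analysed here.

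Odf2 had 6 probes, all above background on all 4 arrays, in 3 accessions. The 4 of the first accession averaged 14.04 ± 0.11, 13.71 ± 0.03, 11.08 ± 0.09 and 10.46 ± 0.30. The probes of the second and the third accession averaged 7.06 ± 0.15 and 6.62 ± 0.04. Sox5, which has a short testis transcript beside the long forms of other tissues, had 6 probes that averaged 13.74 ± 0.17, 12.10 ± 0.10, 7.47 ± 0.24, 7.33 ± 0.23, 6.21 ± 0.12 and 6.03 ± 0.06. Akap1, an anchor of protein kinase A at mitochondria, gave 13.51 ± 0.17, 10.36 ± 0.17 and 9.29 ± 0.12 in 3 probes and 5.81 to 6.41 in the other 4. The largest gaps were in genes with 1 very bright probe. Sh3d21 gave 14.73 ± 0.04 and 5.89 ± 0.09 for probes of different accessions, and Tcte3 gave 14.92 ± 0.15 and 6.13 ± 0.08. Eef1a1 held such a gap within a single accession (14.43 ± 0.03, 14.18 ± 0.03 and 6.03 ± 0.02). Hk1, the hexokinase with a testis form, gave 10.48 ± 0.11 for one accession and 5.97 ± 0.08 for the other.

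A second kind of isoform use is between genes: a testis-type gene in place of, or beside, a counterpart used in other tissues. Testis-type here names the gene listed for germ cells in a pair and does not mean that other tissues do not use it. Both genes were measured in 27 of 34 listed pairs. In 5 pairs the testis-type gene was above background on all 4 arrays and its counterpart on none. In 17 pairs both were above background, and the testis-type gene had the higher probe signal on all 4 arrays in 15 of these. Signals of different probes are set side by side here and are not a ratio of transcripts. With wildtype 1 and 2 alone the first count was again 5, and at a detection p of 0.05 it was 3.

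**Figure D4:**
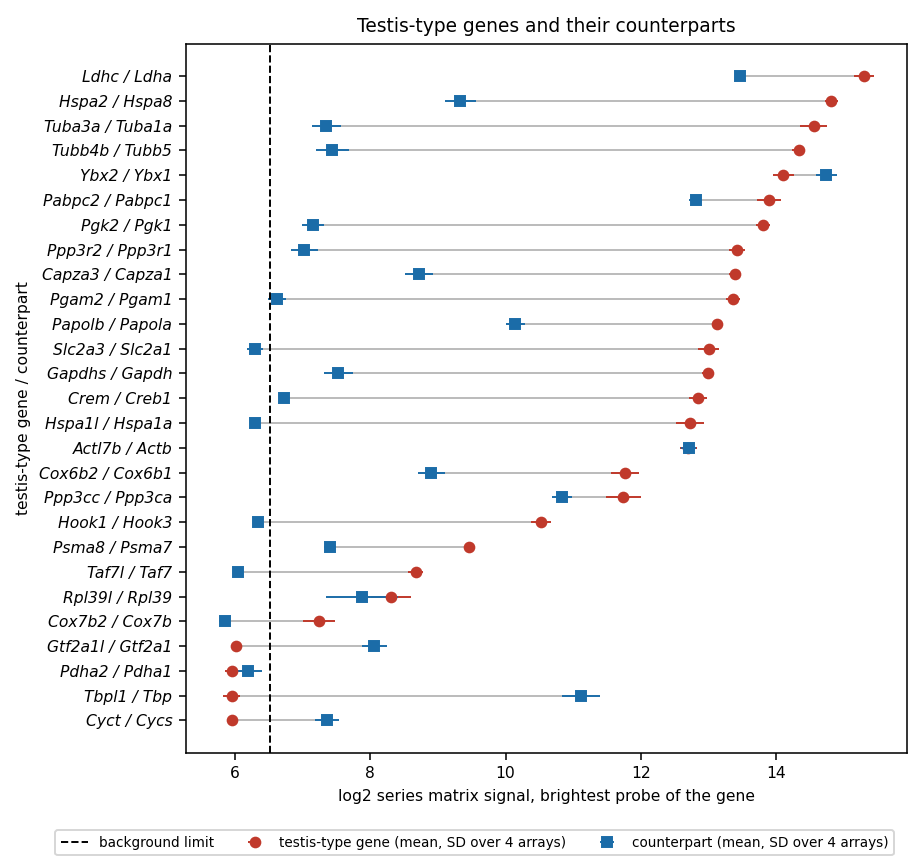
Mean log2 series matrix signal (horizontal axis, SD over 4 wildtype arrays) of testis-type genes (circles) and their counterparts (squares) in 27 pairs; the dashed line is the background limit. Circles lie right of the limit in 23 pairs, and the squares of Slc2a1, Hspa1a, Hook3, Taf7 and Cox7b lie left of it beside them.

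The 5 pairs included transport and stress genes. Slc2a3, a high-affinity glucose transporter, gave 13.01 ± 0.15, and Slc2a1, its widely used relative, 6.29 ± 0.12. Hspa1l, the testis 70 kDa heat shock protein, gave 12.98, 12.66, 12.49 and 12.77 on wildtype 1 to 4, and Hspa1a, the inducible form, 6.32, 6.28, 6.24 and 6.31. Taf7l, the germ cell subunit of the general factor TFIID, gave 8.67 ± 0.11, and Taf7 6.03 ± 0.07. Hook1 and Hook3, and Cox7b2 and Cox7b, completed the 5. At the lower limit of 6.34, from a detection p of 0.05, Slc2a1 passed on wildtype 1 (6.46). Hook3 passed it on wildtype 1 and 4 (6.37 and 6.36), so both pairs depend on the limit.

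In glycolysis, Pgk2, the autosomal testis phosphoglycerate kinase, gave 13.74, 13.75, 13.79 and 13.96, and its X-linked counterpart Pgk1 gave 7.27, 7.29, 6.93 and 7.10. Gapdhs, the sperm glyceraldehyde-3-phosphate dehydrogenase, gave 13.00 ± 0.09, and Gapdh 7.53 ± 0.21. Ldha was bright beside Ldhc, at 13.47 ± 0.07. In the cytoskeleton, Tuba3a and Tubb4b (14.34 ± 0.10) stood beside Tuba1a (7.35 ± 0.21) and Tubb5 (7.44 ± 0.25). Actl7b and Actb did not differ beyond their spread (12.71 ± 0.13 and 12.71 ± 0.11). Ybx2, with all 3 of its probes above background, had a lower signal than the brightest probe of Ybx1 on all 4 arrays. The other 2 Ybx1 probes were below the limit on every array (6.30 ± 0.04 and 5.98 ± 0.01), so this order rests on 1 probe of Ybx1.

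In 3 pairs the testis-type gene was not above background and the counterpart was: Cyct and Cycs (5.95 ± 0.07 and 7.36 ± 0.18), the testis and general cytochrome c, Gtf2a1l and Gtf2a1 (6.01 ± 0.06 and 8.06 ± 0.19), and Tbpl1 and Tbp (5.95 ± 0.13 and 11.11 ± 0.29). Neither Pdha2 nor Pdha1 was above background on any array.

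Functions of other tissues were mostly below the limit. Of 1078 olfactory receptor genes, 9 were above background on all 4 arrays and 1046 on none. Vomeronasal receptors passed in 2 of 173 cases, and bitter taste receptors in 0 of 32. Keratin-associated proteins of hair passed in 2 of 42 cases, synapse and neurotransmitter receptor genes in 1 of 23, pituitary and peptide hormones in 1 of 17 and liver secreted proteins in 3 of 21. Alb (5.91 ± 0.05), the main protein of blood plasma, Ins2 (6.05 ± 0.07), insulin, Ckm (5.86 ± 0.04), muscle creatine kinase, and Snap25 (6.05 ± 0.11), of synaptic vesicle fusion, all lay below the limit on all 4 arrays. Developmental signals were similar: 2 of 19 Wnt ligands, 3 of 22 Fgf ligands and 5 of 38 Hox genes passed. Genes induced by interferon passed in 2 of 16 cases, led by Mx2 at 6.89 ± 0.11. The members of the crystallin, Hox and type I interferon lists were corrected after their values had been seen.

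These lists also had bright members. Hoxd8, a homeobox gene, gave 11.47, 11.43, 11.74 and 11.58 on wildtype 1 to 4, against a Hox list median of 6.14. Ccl27a, a skin chemokine, gave 11.88, 12.37, 12.31 and 11.68, and Amy2a5, a pancreatic amylase, 12.14, 12.22, 11.64 and 11.79. All 4 arrays held each of these 3 genes within the brightest 1410 probes. Defb33 (12.15 ± 0.44), a beta-defensin, Col9a3 (11.16 ± 0.10), a cartilage collagen chain, Krt88 (10.57 ± 0.25), a keratin, Cd3d (10.22 ± 0.15) and Cd8b1 (9.80 ± 0.13), of the T cell receptor complex, and Klf4 (10.18 ± 0.20), a pluripotency factor, were further cases. Of the T and B cell receptor complex list, 5 of 13 genes were above background (38.5%), near the share of all named genes. Zap70 (7.67 ± 0.26), a kinase of T cell receptor signalling, Cd247 (6.80 ± 0.22) and Cd4 (6.73 ± 0.13) were the other 3. Cd3e (6.16 ± 0.03), Cd3g and Cd8a (5.98 ± 0.06), partners of Cd3d and Cd8b1, were below the limit on every array, as was Ptprc (6.08 ± 0.17), a marker of all leukocytes. Wnt3a (9.53 ± 0.29), Grin2b (9.40 ± 0.16), a glutamate receptor subunit, and Olfr303 (9.01 ± 0.19) led their lists. For Amy2a5, Col9a3 and Grin2b, only 1 of 3 probes was above background on all 4 arrays. For Cd8b1 it was 2 of 3, and for Ccl27a and Klf4 every probe.

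Cell division genes were the exception among the lists for functions of other cells: 20 of 29 were above background. Ccnd3 (11.72 ± 0.08), a D-type cyclin, and Plk1 (11.54 ± 0.23), a mitotic kinase, led, and Top2a (9.65 ± 0.05) and Mcm7 (9.67 ± 0.10) followed. Ccna2 (5.89 ± 0.10), Ccnb2 (5.92 ± 0.07) and Bub1 (6.02 ± 0.10) were below the limit on all 4 arrays, and Pcna, the replication clamp, reached it on 1 (6.31 ± 0.17).

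Meiotic prophase genes passed in 18 of 28 cases, led by Syce3 (12.55 ± 0.21) and Stag3 (12.32 ± 0.12), of the synaptonemal complex and meiotic cohesin. Smc1b (11.16 ± 0.20) and Rec8 (11.09 ± 0.12), also of meiotic cohesin, Spo11 (10.36 ± 0.22), which makes the meiotic DNA breaks, and the synaptonemal genes Sycp2 (8.80 ± 0.51) and Sycp1 (6.99 ± 0.27) were above background on all 4 arrays. The defining markers Sycp3 (5.92 ± 0.06) and Dmc1 (5.99 ± 0.02) were below the limit on all 4 arrays. Of the spermatogonial markers 5 of 24 passed, with Zbtb16 and Gfra1 below the limit and Kit at 7.44 ± 0.21. In a bulk sample, fewer cells of a type and less RNA per cell cannot be told apart.

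Markers of somatic testis cells passed at shares from 7.69% (Leydig cells) to 38.5% (endothelium and blood), against 41.0% of all named genes. Sertoli cell markers passed in 8 of 23 cases, stroma in 3 of 14, immune cells in 5 of 16, endothelium and blood in 5 of 13 and Leydig cells in 1 of 13. With wildtype 1 and 2 alone, the Sertoli and immune counts were 11 (47.8%) and 7 (43.8%), both above the 43.5% of all named genes on those arrays. Fshr, Cyp17a1, Star, Ptprc and Pecam1 were below the limit on all 4 arrays. Csf1r, the other defining immune marker, reached the limit on wildtype 1 and 2 only (6.73, 6.53, 6.26 and 6.26 on wildtype 1 to 4). Other markers of the same lists were above it on all 4. They included Sox9 (6.63 ± 0.08) and Cldn11 (8.01 ± 0.47) of Sertoli cells, and Dcn (8.09 ± 0.52) and Acta2 (6.81 ± 0.26) of stroma. Sox9 lay near the limit, and limma's one-sided test did not call it above background (adjusted p 0.063). H2-Ab1 (7.93 ± 0.10), C1qb (7.15 ± 0.29), Lyz2 (7.06 ± 0.53) and Adgre1 (7.04 ± 0.29) of immune cells were also above the limit on all 4 arrays. So was Vwf (7.38 ± 0.16) of endothelium. Insl3, a Leydig hormone, gave 7.54 ± 0.15 and Defb19 of Sertoli cells 9.60 ± 0.80. The summed signal of the endothelium and blood list was 3405 on wildtype 1, 1724 on wildtype 2, 1277 on wildtype 3 and 1215 on wildtype 4. It was carried by hemoglobin: Hbb-bs gave 9.99, 8.30, 7.07 and 6.87. Lysozyme Lyz1 was highest on the same array (9.21, 8.33, 7.58 and 7.67). Other lists also differed by array. The Sertoli list summed to 3775, 4259, 2724 and 3070 on wildtype 1 to 4, and the immune list to 2355, 1822, 1515 and 1599. The stroma list (1567, 1249, 1322 and 1336) and the Leydig list (1033, 1055, 1007 and 1030) did not separate wildtype 1 and 2 from 3 and 4 in this way. The part of other cells in the values given here was not tested.

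Spread between arrays was examined only in the 7811 genes above background on all 4. The 1485 genes above it on only some arrays were left out. Every array also had the same lowest and highest signal, so part of the likeness between arrays may come from the normalization. Of the 7811 genes, 76 had an SD over 0.5 log2 units (0.973%). Ntpcr, a nucleoside triphosphatase, was the most variable, with 10.58, 11.30, 6.71 and 6.69 on wildtype 1 to 4, so the first pair and the second did not overlap. Chd4, a chromatin remodeller, gave 10.27, 10.79, 8.64 and 8.84, and Ckmt2, a mitochondrial creatine kinase, the opposite order at 7.71, 7.64, 9.91 and 9.77. Lower signals on both of wildtype 3 and 4, by over 1 log2 unit, were seen in 7 genes, and higher ones in 7. The hemoglobin genes Hbb-bs, Hba-a1 and Hbb-bt were among the 12 most variable genes.

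By chromosome, X-linked genes had the lowest share above background. The X chromosome is silenced in meiosis, and much of that repression is known to persist in round spermatids, while many multicopy genes escape it. On the X, 198 of 710 genes were above background (27.9%), against 35.5% to 48.8% on the 19 autosomes and 41.5% over all autosomal genes. Without olfactory and vomeronasal receptors the X share was 28.1% and the autosomes ran from 38.3% to 48.9%. With wildtype 1 and 2 alone 215 X genes passed, and on single arrays 30.3% to 31.4% of X genes did, against 44.8% to 45.4% of autosomal genes. Of 19 Y genes, 13 passed (68.4%), and 14 with wildtype 1 and 2 alone.

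**Figure D5:**
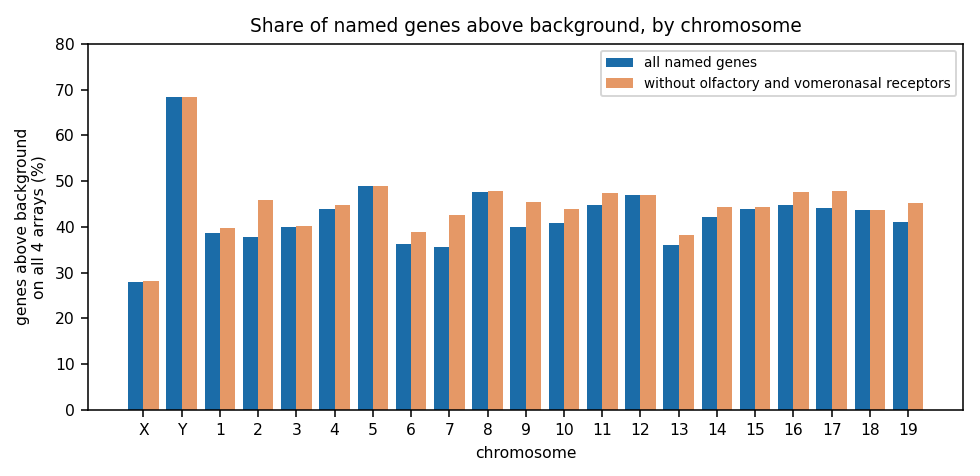
Share of named genes above background on all 4 wildtype arrays (vertical axis, %) for each chromosome, with all named genes and without the olfactory and vomeronasal receptors. The X had 27.9% and the Y, with 19 genes measured, 68.4%, against 35.5% to 48.8% on the autosomes.

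The X genes that passed held multicopy spermatid genes at the top. H2al1e (14.06 ± 0.13), H2al1m (13.11 ± 0.16) and H2al1n (12.70 ± 0.18) encode near-identical histone H2A variants of condensing spermatids, and Cypt3 (13.26 ± 0.13) a cysteine-rich protein of the perinuclear theca. Their copies can share probes, so the values cannot be given to single copies. Prdx4 (12.92 ± 0.13), a peroxiredoxin of the endoplasmic reticulum, and Akap4 were bright among single-copy X genes. On the Y, Gm20815 gave 14.35 ± 0.05, Ssty2, a multicopy spindlin relative of spermatids, 13.26 ± 0.07 and Gm20867 13.14 ± 0.11. Sly gave 10.52, 10.36, 10.06 and 10.05 on wildtype 1 to 4, and Sry, the sex-determining gene, was not above background (5.97 ± 0.08). Of the X homeobox Rhox genes, Rhox11 (7.79 ± 0.05) and Rhox13 (7.28 ± 0.28) were the 2 of 9 that passed.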

How the data were processed

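The deposited series matrix gives probe intensity on a linear scale, which the authors had normalized, since its lowest and highest values are the same on all 4 arrays. The other table gives non-normalized intensity with a detection p-value per probe, per the file headers. The submitters' processing notes name BeadStudio and GenomeStudio. The normalization method is not stated there. Array number limits the precision.

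Series matrix intensity was converted to log2. The background limit was the lowest signal (91.6) with a deposited detection p-value under 0.01 on both wildtype 1 and 2. Limma 3.58.1 in R 4.3.3 (lmFit, eBayes) tested each probe's distance to the limit, one-sided, with Benjamini-Hochberg adjustment over 45281 probes, at an adjusted p of 0.05. This was tested on simulated data. Everything else is description. Of the probes, 34885 had 1 symbol, 18 several and 10378 none, and 34807 were renamed by gene identifier from the GRCm38.p6 table. The limit was applied unchanged to wildtype 3 and 4.

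Named are the 30 genes with the highest mean, the 3 markers, the highest and lowest members of the gene lists, both genes of each pair, the largest gaps between probes, the 12 most variable genes, and the leading X and Y genes. Hk1, Crem, Odf2, Akap4, Gopc, Izumo1, Acr and other members described by role were picked from the lists after their values were seen. The members and lists were chosen with earlier results of these data known. Alternatives covered the detection p, the background correction, the table, the probe of a gene, the slide and each array left out.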

Additional observations from a re-analysis of the deposited data

Results flagged for a closer look

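Of 78 genes examined, 4 had 1 array far from the other 3, a gap that chance gives in about 1 group of 20, and 4 of 78 is close to that share. All 4 cases were on wildtype 2, alone on its slide. The log2 signal of Ldhc there was 15.077, against 15.382 on each of the other arrays, where it held the highest value that the normalization allows. With those 3 arrays tied at that value, any lower value on the fourth would be picked out, so this case says nothing more. Tcte3 was higher there (15.153, against 14.823 to 14.876), as was Psma7, a proteasome subunit (7.5381, against 7.3442 to 7.3774). Gpx4 was lower there (14.489, against 14.597 to 14.609).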

How the results depend on the processing

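Of 79 alternative values computed for the counts, 76 stayed close to the reported count, by a factor of at most 1.5. The count of leading genes that remained moved with the mean over a gene's probes in place of the brightest, to 15 of 30 and 65 of 100. The count of pairs with the testis-type gene above background and its counterpart on no array moved to 3 at a detection p of 0.05, where the limit is lower. The probes above background ran from 12064 to 15143 over all alternatives and those below the limit on all arrays from 24347 to 30974, beside 13199 (13578 at an unadjusted p under 0.05) and 28930 (63.9%). Leaving out each array in turn gave 12976 to 13114 probes above background, 28 to 30 of the 30 leading genes, 2905 to 2965 genes with split probes and 198 to 206 X genes. The setting with wildtype 1 and 2 alone was chosen after seeing the data. The slide as a random block was not run, because 3 slides over 4 arrays gave no correlation. With wildtype 3 and 4 averaged as 1 slide the count was 13123. No paired analysis was possible because all values come from 1 group. Signal near the limit gives no order between genes.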

Other observations

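Families described above by their counts held other bright members. Hoxa4 gave 9.87 ± 0.12 and Hoxc9 8.87 ± 0.12 (mean log2 signal ± SD, n = 4), while 28 of 38 Hox genes had no probe above background on any array. Defb14, a beta-defensin, gave 11.16 ± 0.43 and Defb30 9.67 ± 0.13. Among cytochrome P450 genes, 13 of 86 were above background on all 4 arrays, led by Cyp4f39 (9.99 ± 0.08) and Cyp2a12 (9.87 ± 0.46). Among collagen genes, 13 of 41 were, led by Col9a3, Col16a1 (10.53 ± 0.39) and Col2a1 (9.57 ± 0.39).

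Lhb, the beta subunit of luteinising hormone, was the 1 of 17 pituitary and peptide hormone genes above background on all 4 arrays (8.84 ± 0.17), and Cga, which encodes its alpha subunit, was not above background on any (6.01 ± 0.14). Vmn1r181, a vomeronasal receptor, gave 8.85 and 8.77 on wildtype 1 and 2 and 10.02 and 9.75 on wildtype 3 and 4.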
